A study of Mus musculus with 4 samples.

Results

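*Dbil5*, *Tmem89*, *Efcab10*, *Gm5617* and *Aprt* are 5 of the 24411 genes listed in each file, and each is the row that carries its symbol. They were picked on these same values, because the 2 control libraries were judged to agree and both libraries labelled *Zfp541* KO were far lower, although the agreement was loose in *Dbil5*, whose controls were 1.61-fold apart, and in *Gm5617* (1.31-fold). The difference between the genotypes is therefore a description here and carries no test. The study asked how the transcriptome of meiotic prophase cells differs when ZFP541, a zinc-finger protein of a histone deacetylase complex in spermatocytes, is missing. RNA of GFP-positive cells was sequenced from 2 testis samples of *Zfp541*+/- mice, called control 1 and control 2, and from 2 samples of *Zfp541* KO mice, called KO 1 and KO 2. All 4 samples came from male germ cells at postnatal day 18 and all carried *Rec8-3xFLAG-HA-p2A-GFP*, a knock-in allele that couples GFP to the meiotic cohesin REC8. The series design gives that allele as heterozygous in one control sample and homozygous in the other and in both KO samples, without saying which control is which. The labels give the strain as C57BL/6 and CBA mixed, while the study's methods give C57BL/6 for the mutant and the knock-in mice. Each sample was 1 testis, and whether the testes came from different animals or litters was not stated, so the spread between samples may be partly technical.

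Levels are given in TPM, a transcript's share of its library after correction for its length. These shares hold no read numbers, so depth is unknown and no counting interval can be given. Each pair of values has library 1 first. In RNA of a sorted population, fewer cells of a type and less RNA per cell cannot be told apart. *Zfp541* itself read 112 and 72.2 TPM in *Zfp541*+/- cells against 136 and 151 TPM in KO 1 and KO 2, so its whole-gene level was not lower under the KO label and each genotype is taken from the label alone. The study reports that its KO allele deletes exons of the gene and that testes of older KO mice lacked ZFP541 protein. A whole-gene level does not show which exons the reads came from. *Sycp3*, an axis protein gene of meiotic chromosomes, was at 1108 and 1263 TPM in the control pair and 2093 and 2196 TPM in KO 1 and KO 2. This defining marker of the labelled cells was thus present in each library. It was higher in both KO libraries, and 38.6% of all genes tested were likewise higher without overlap of the groups. The controls lay further apart than the KO libraries, with a median gap over the 14512 genes tested of 0.645 between controls and 0.157 between KO libraries on the log2(TPM + 1) scale. *Rec8* itself was at 7.05 and 27.9 TPM in the control pair and 27.7 and 19.4 TPM in KO 1 and KO 2.

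Spermatocytes begin to make many transcripts for sperm formation while they are still in the pachytene stage of meiotic prophase, well before the haploid cells that need the proteins appear. *Dbil5* encodes the endozepine-like peptide, a testis member of the acyl-CoA-binding protein family that carries activated fatty acids. *Aprt* encodes adenine phosphoribosyltransferase, the purine salvage enzyme that joins adenine to phosphoribosyl pyrophosphate to give AMP in most cells of the body. *Efcab10* is named for an EF-hand, a helix-loop-helix fold that binds calcium. *Tmem89* is named only as a transmembrane protein gene, and *Gm5617* is a predicted gene with no assigned function in its name.

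All 5 are compact protein-coding genes on autosomes of GRCm38, the assembly UCSC calls mm10. *Dbil5* (ENSMUSG00000038057) lies at chr11:76217613-76218665 on the forward strand with 2 exons and a coding sequence of 87 codons. *Tmem89* (ENSMUSG00000025652) lies at chr9:108914619-108915563, forward, with 2 exons and 169 codons. *Efcab10* (ENSMUSG00000020562) lies at chr12:33394825-33401269, forward, with 4 exons and 132 codons. *Gm5617* (ENSMUSG00000042293) lies at chr9:48495343-48495975, forward, as 1 exon with 117 codons, and *Aprt* (ENSMUSG00000006589) at chr8:122574637-122576907 on the reverse strand with 5 exons and 180 codons. Positions are from RefSeq, and exons and codons from the GENCODE transcript with the longest coding sequence.

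The start regions of the 5 genes were searched for short letter runs bound by factors known in testis, in RefSeq windows of GRCm38.p6 from 250 bases before to 50 bases after each start. The letters GTTGCC, only a part of the X-box bound by RFX factors, stood on either strand in the windows of *Dbil5*, *Tmem89* and *Efcab10*, and in 12.5% of all 32851 windows. The letters TGACGT, only a part of the element bound by CREB and CREM, stood in the windows of the other genes, *Gm5617* and *Aprt*, and in 7.5% of all windows. The full X-box and the full CREB and CREM element were not searched for. These stretches are shown because they divide the 5 genes without overlap. The window of *Efcab10* is built on a start at base 33394854 of chromosome 12, 29 bases inside the RefSeq gene start given above, and distances for it count from there. That of *Gm5617* is built on the RefSeq start, base 48495343 of chromosome 9, and its transcript bases count from there. The GENCODE transcript of *Gm5617* described above begins later, at base 48495442, so the match lies before that transcript. The match is in capitals, read 5′ to 3′ on the strand of the gene, and GGCAAC and ACGTCA are the same letters on the opposite strand.
Dbil5, 69 bases before the start, chr11:76217534-76217559: ccgcgaacgcGTTGCCcgcgccacgg
Tmem89, 30 bases before the start, chr9:108914579-108914604: gtgtttgcccGTTGCCaaggtaccag
Efcab10, 140 bases before the start, chr12:33394704-33394729: ctcctgccagGGCAACcctgagggct
Efcab10, from base 28 of the transcript, chr12:33394871-33394896: cctctgtgttGGCAACtgcatcacaa
Gm5617, from base 3 of the transcript, chr9:48495335-48495360: tcccgttcagACGTCAcgacgtaaag
Aprt, from base 17 of the transcript, chr8:122576876-122576901: cccccgggatTGACGTgagtttagcg
A match is a run of letters and not a shown binding site. By RefSeq positions the stretch of *Dbil5* lies within *Gemin4*, and the upstream stretch of *Efcab10* within *Atxn7l1os2*. Both are neighbouring genes on the opposite strand. GGGCGG, the GC box, stood in the windows of *Dbil5*, *Gm5617* and *Aprt* and in 35.7% of all windows. CCAAT stood in that of *Tmem89* and in 37.4% of all. The letters AACGGT, a form of part of the MYB site (3.3% of all windows), the E-box CACGTG (7.2%) and TATAAA (13.6%) stood in none of the 5. Other forms of these sites were not searched for. Base composition differed among the windows, with 70.0% G and C and 30 CpG in *Dbil5*, 67% and 30 in *Gm5617*, 57.7% and 14 in *Aprt*, 55.3% and 6 in *Tmem89*, and 45.3% and 3 in *Efcab10*. The median over all windows was 52.7% and 7.

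*Dbil5*, the acyl-CoA-binding peptide gene, was at 129.8 and 80.4 TPM in the control pair and at 14.4 and 16.8 TPM in KO 1 and KO 2. Both KO libraries were low, and the lower control was still 4.79 times the higher KO library. On the log2(TPM + 1) scale the KO libraries were 0.20 apart, beside a median of 0.157 over all genes tested. The group means were 105 ± 34.9 TPM and 15.6 ± 1.65 TPM (SD, n = 2 each), a ratio of 6.73. *Dbil5* had the widest gap between controls of the 5 genes, 1.61-fold.

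*Tmem89* was at 24.4 and 22.3 TPM in the control pair and at 1.42 and 2.31 TPM in KO 1 and KO 2. The controls were nearly equal, and the KO libraries were near the bottom of the range of genes tested. The means were 23.3 ± 1.5 TPM and 1.86 ± 0.629 TPM (SD, n = 2 each), a ratio of 12.5, the highest of the 5 genes. At levels this low the KO libraries differed from each other by 1.63-fold, the widest such gap of the 5 genes.

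*Efcab10*, the EF-hand gene, was at 40.9 and 39.5 TPM in the control pair and at 6.57 and 5.36 TPM in KO 1 and KO 2. The controls were within 1.03-fold of each other, closer than for any of the other genes here. The means were 40.2 ± 0.948 TPM and 5.96 ± 0.856 TPM (SD, n = 2 each), a ratio of 6.74.

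*Gm5617* was at 357 and 272 TPM in the control pair and at 63.2 and 82.6 TPM in KO 1 and KO 2. It was the most abundant of the 5 transcripts in both controls, and each group spread by 1.31-fold. The means were 314.5 ± 60.1 TPM and 72.9 ± 13.7 TPM (SD, n = 2 each), a ratio of 4.32.

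*Aprt*, the adenine salvage enzyme gene, was at 199.7 and 188 TPM in the control pair and at 70.6 and 71.1 TPM in KO 1 and KO 2. Its KO libraries were within 1.01-fold of each other, the tightest pair among the 5 genes, and its difference was the smallest. The means were 194 ± 8.58 TPM and 70.9 ± 0.382 TPM (SD, n = 2 each), a ratio of 2.73. The KO libraries thus still held 36.6% of the control level of *Aprt*, against 23.2% for *Gm5617*, 14.9% for *Dbil5*, 14.8% for *Efcab10* and 7.99% for *Tmem89*.

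**Figure D1:**
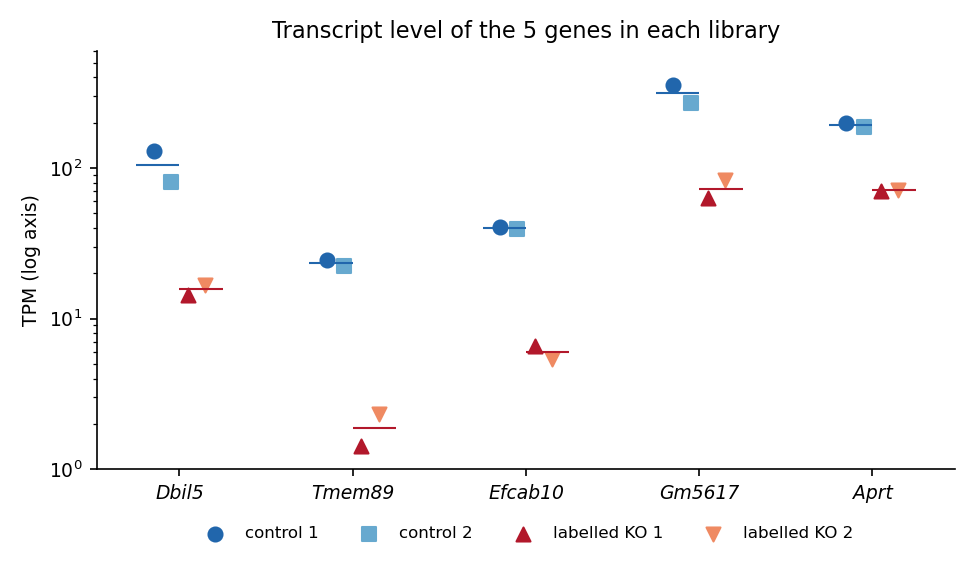
TPM of each gene (log axis) in the 4 libraries, blue for controls and red for libraries labelled KO, with horizontal lines at the group means (n = 2 each). In all 5 genes both KO libraries lie below both controls, by the least in *Aprt* (lower control 2.64 times the higher KO library) and by the most in *Tmem89* (9.64 times).

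The groups did not overlap in any of the 5 genes, which the choice of the genes fixed. Of all genes tested, 12.1% were lower without overlap of the groups and 38.6% higher without overlap. On the log2(TPM + 1) scale the difference of KO from control was -3.10 for *Tmem89* (standard error 0.38 from the limma fit), -2.64 for *Dbil5* (0.32), -2.57 for *Efcab10* (0.29), -2.09 for *Gm5617* (0.25) and -1.44 for *Aprt* (0.17), beside a median of 0.28 over all genes tested. The differences of single KO libraries from single controls ran from -3.39 to -2.81 in *Tmem89*, from -3.08 to -2.20 in *Dbil5*, from -2.72 to -2.42 in *Efcab10* and from -2.48 to -1.71 in *Gm5617*, so each of these overlapped the next in the order. The ranges of *Tmem89* and *Efcab10* did not overlap, and that of *Aprt*, -1.49 to -1.39, lay apart from the other four. All 5 were lower by at least 1 on this scale, as were 5.22% of all genes tested, while 8.98% were higher by as much. No gene passed an FDR of 0.05 in limma over the 14512 genes tested (0% lower and 0% higher), with 542 lower and 1549 higher at an unadjusted p under 0.05 (3.73% and 10.7%) and a smallest adjusted p of 0.310 in limma. That balance rests on the scaling, since median-ratio scaling gave 1097 lower and 606 higher at an unadjusted p under 0.05, and quantile normalization 1009 and 1010.

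The 4 libraries ordered the 5 genes in much the same way within a group. Control 1 was above control 2 in all 5, and KO 2 was above KO 1 in 4, the exception being *Efcab10*. In the controls the order from high to low was *Gm5617*, *Aprt*, *Dbil5*, *Efcab10* and *Tmem89*, and no neighbouring pair in it overlapped. In the KO libraries *Gm5617* (63.2 and 82.6 TPM) and *Aprt* (70.6 and 71.1 TPM) overlapped at the top, followed by *Dbil5*, *Efcab10* and *Tmem89*. Ranked within each library among the genes tested, *Tmem89* went from the 50.5th and 56.8th percentile in the controls to the 6.29th and 11.3th, and *Dbil5* from the 88.2th and 83.1th to the 39.0th and 42.3th. *Aprt* went from the 93.0th and 92.9th percentile to the 76.4th and 76.5th.

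How far the 5 genes stand out depends on the measure. Ranked by the limma statistic for a lower level, the 5 genes were in places 2 to 6 of the genes tested, with *Actl7b*, an actin-like gene of the testis, in place 1. The 5 genes were chosen for close controls and low KO libraries, so high places by that statistic and small control gaps largely follow from the choice. Ranked by the size of the difference they were only in places 75 (*Tmem89*), 135 (*Dbil5*), 148 (*Efcab10*), 238 (*Gm5617*) and 463 (*Aprt*). The 463 genes with a difference at least as large as that of *Aprt* had a median gap between controls of 1.74 on the log2(TPM + 1) scale, whereas the 5 genes had gaps from 0.047 in *Efcab10* to 0.68 in *Dbil5*. The median control gap over all genes tested was 0.645, below that of *Dbil5*. Between the KO libraries only *Aprt* (0.011) had a gap below the all-gene median of 0.157. The others had 0.20 (*Dbil5*), 0.25 (*Efcab10*), 0.38 (*Gm5617*) and 0.45 (*Tmem89*). Within the bounds that the 5 genes span, a difference at least as large as in *Aprt* and a control gap no larger than in *Dbil5*, stood 39 other genes. With the gap between KO libraries also held to that of *Tmem89*, 18 others remained. The largest differences among the 39 were those of *Actl7b* (74.3 and 47.8 TPM in the control pair, 2.77 and 4.65 TPM in KO 1 and KO 2), *1700021F07Rik*, *Rsph9*, *Hist1h4c* and *1700101I11Rik*. *Rsph9*, a radial spoke gene of the sperm flagellum, was at 79.3 and 69.2 TPM and at 7.58 and 13.6 TPM. Just outside the bound of *Aprt* were *Fbxo36* at -1.43 and *Ttc30a1* at -1.41 on the log2(TPM + 1) scale.

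**Figure D2:**
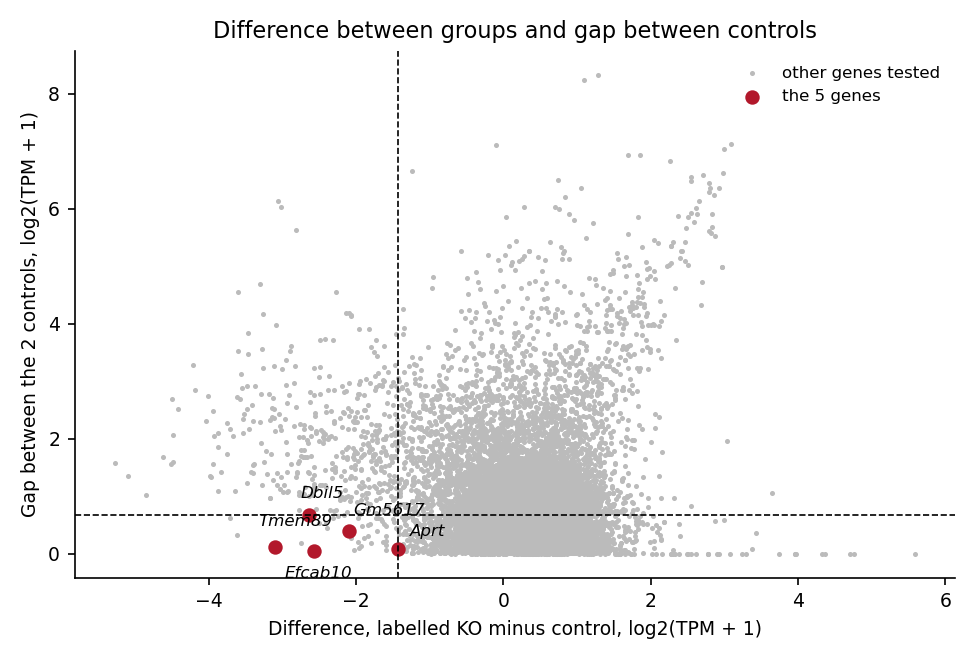
Each point is 1 of the 14512 genes tested, placed by its difference of KO from control (x axis) and the gap between the 2 controls (y axis), both on the log2(TPM + 1) scale. The 5 genes (red) set the dashed lines at -1.44 and 0.68, and 39 other genes lie in the same lower left corner.

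The genes closest in pattern were found from the distance between profiles over the 4 libraries, each profile being log2(TPM + 1) less its mean. *1700016K19Rik* was nearest to *Gm5617* (distance 0.097), at 104.6 and 86.1 TPM in the control pair and 18.6 and 25.8 TPM in KO 1 and KO 2. *Mt1*, a metallothionein gene, was nearest to *Aprt* (0.121), at 654 and 635 TPM in the control pair and 259 and 255 TPM in KO 1 and KO 2. *1700101I11Rik* was nearest to *Dbil5* (0.210), *Rsph9* to *Tmem89* (0.423) and *4930522O17Rik* to *Efcab10* (0.545). The next were *Csl* and *Ldhal6b* for *Dbil5*, *1700018B08Rik* and *Cfap126* for *Gm5617*, and *Rabepk* and *Pla2g2c* for *Aprt*. For both *Tmem89* and *Efcab10* the next were *Dbil5* itself and *1700101I11Rik*. Among the 5 genes *Dbil5* and *Efcab10* were the closest pair (0.557) and *Tmem89* and *Aprt* the farthest apart (1.70). These distances rest on 4 libraries and are a description.

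The nearest listed gene on each side of each of the 5 was then read, a measurement that played no part in their choice. *Gm5617* and *Rbm7*, which encodes an RNA-binding protein working with the nuclear exosome, are transcribed away from each other from RefSeq starts with 12 bases between them. *Rbm7* was at 54.2 and 67.8 TPM in the control pair and at 104.1 and 90.9 TPM in KO 1 and KO 2. It was thus higher in both KO libraries, where *Gm5617* was lower (log2 difference 0.67, standard error 0.22, adjusted p = 0.322 in limma). It had the smallest p in limma of the 9 neighbours tested.

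*Dbil5* lies 40 bases from *Gemin4* in RefSeq and overlaps it by 57 bases in the GENCODE annotation. *Gemin4*, a gene of the SMN complex that assembles spliceosomal particles, is on the opposite strand. *Gemin4* was at 20.0 and 34.6 TPM in the control pair and 32.9 and 29.5 TPM in KO 1 and KO 2, so the groups overlapped. *Glod4*, also on the opposite strand, spans all of *Dbil5* in the GENCODE annotation and was at 54.0 and 68.9 TPM and at 65.0 and 66.7 TPM. Whether the reads were counted by strand was not stated, and without strand the reads of *Dbil5* and of *Glod4* or *Gemin4* cannot be fully told apart.

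*Efcab10* has *Atxn7l1os2*, a long noncoding RNA gene on the opposite strand, 64 bases from it, and that gene was listed at 0 in 3 libraries and at 0.12 TPM in KO 1. On its other side *Twistnb*, an RNA polymerase I subunit gene, was at 20.6 and 22.8 TPM in the control pair and 34.0 and 33.7 TPM in KO 1 and KO 2 (log2 difference 0.62, adjusted p = 0.348 in limma). Beside *Tmem89*, the anion exchanger gene *Slc26a6* was at 5.54 and 4.79 TPM and at 7.52 and 6.68 TPM. *Uqcrc1*, of mitochondrial complex III, was at 382 and 583 TPM and at 311 and 336 TPM (log2 difference -0.54, adjusted p = 0.431 in limma). Beside *Aprt*, the replication licensing gene *Cdt1* was at 13.4 and 31.3 TPM and at 22.9 and 22.6 TPM, and the lysosomal sulfatase gene *Galns* at 10.4 and 7.43 TPM and at 7.15 and 7.19 TPM. *Nnmt*, beyond *Gm5617*, ran from 0 TPM in control 2 to 5.47 TPM in control 1. Of the 9 neighbours tested, 2 (22.2%) were lower and 3 (33.3%) higher without overlap of the groups, beside 12.1% and 38.6% of all genes tested, 0 passed an FDR of 0.05 in limma and 1 was at an unadjusted p under 0.05. None of the 9 had a difference as low as its partner among the 5 genes. The 5 genes were chosen for their low differences, so that outcome was largely set by the choice. It does not show whether the differences are local to them.

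**Figure D3:**
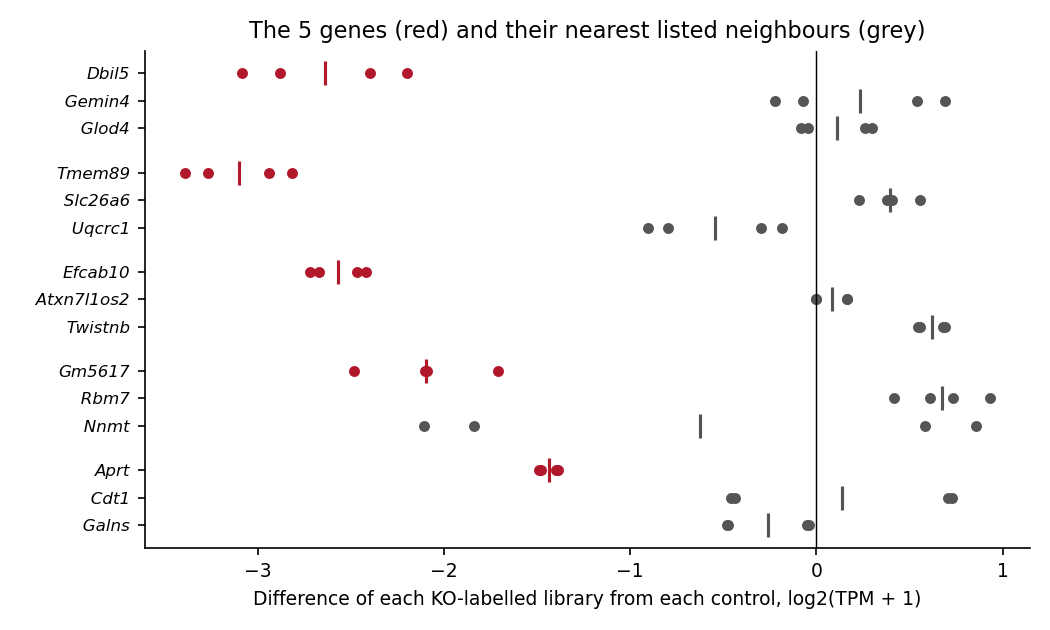
Differences of each KO library from each control (4 dots per gene, log2(TPM + 1) scale, bar at their mean) for the 5 genes in red and the nearest listed gene on each side of each in grey. The neighbours' means run from -0.63 in *Nnmt* to 0.67 in *Rbm7*, against -3.10 to -1.44 in the 5 genes, which were chosen for their lower level.

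*Aprt* was set beside 42 other genes of purine salvage and nucleotide synthesis. Of these, 8 (19.0%) were lower and 12 (28.6%) higher without overlap of the groups, against 12.1% and 38.6% of all genes tested. None passed an FDR of 0.05 in limma, with 2 lower and 5 higher at an unadjusted p under 0.05, and the median log2 difference was 0.15. Genes of 3 other salvage enzymes, named here for their place beside *Aprt*, were not lower in both KO libraries. *Hprt*, which salvages guanine and hypoxanthine, was at 82.3 and 115.3 TPM in the control pair and 112.3 and 111.2 TPM in KO 1 and KO 2. *Adk*, adenosine kinase, was at 41.0 and 73.9 TPM and at 90.3 and 82.1 TPM, and *Mtap*, whose reaction releases adenine, at 10.1 and 14.0 TPM and at 14.4 and 9.72 TPM.

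The 2 purine genes with a lower level at an unadjusted p under 0.05 are known from testis or cilia. *Prps1l1*, a testis form of the enzyme that makes phosphoribosyl pyrophosphate, was at 165.6 and 55.5 TPM in the control pair and at 1.78 and 5.47 TPM in KO 1 and KO 2 (log2 difference -4.52, standard error 0.72, adjusted p = 0.310 in limma). *Ak8*, an adenylate kinase of cilia and flagella, was at 91.2 and 45.3 TPM and at 9.23 and 18.2 TPM. In both genes the controls stood further apart than in *Aprt*. Among the higher ones, *Ak4*, a mitochondrial adenylate kinase, was at 9.29 and 9.57 TPM and at 26.7 and 31.3 TPM, *Adss*, adenylosuccinate synthase, had a log2 difference of 0.84, and *Dck*, deoxycytidine kinase, one of 1.00.

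*Dbil5* was set beside 22 genes of acyl-CoA binding, activation and cleavage. Without overlap of the groups 4 (18.2%) were lower and 6 (27.3%) higher, beside 12.1% and 38.6% of all genes tested. None passed an FDR of 0.05 in limma, 2 were lower and 2 higher at an unadjusted p under 0.05, and the median log2 difference was 0.03. *Dbi*, the acyl-CoA-binding protein found in most cells, was at 358 and 292 TPM in the control pair and 305 and 238 TPM in KO 1 and KO 2, so its groups overlapped. *Acbd6*, another member of that family, was at 231 and 215 TPM and at 118 and 134 TPM (log2 difference -0.82, standard error 0.18, adjusted p = 0.310 in limma). The Golgi protein gene *Acbd3* was at 46.8 and 34.5 TPM and at 84.5 and 88.8 TPM (1.09, adjusted p = 0.310 in limma). *Acot7*, an acyl-CoA thioesterase gene, had a log2 difference of -0.84, and *Acsl1*, which activates long-chain fatty acids, one of 1.31.

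*Efcab10* was set beside 28 genes of EF-hand proteins. Here 7 (25%) were lower and 7 (25%) higher without overlap of the groups, beside 12.1% and 38.6% of all genes tested. None passed an FDR of 0.05 in limma, 3 were lower and 2 higher at an unadjusted p under 0.05, and the median log2 difference was -0.04. *Cetn1*, the testis centrin of the centriole, was at 607 and 257 TPM in the control pair and 28.7 and 41.4 TPM in KO 1 and KO 2 (log2 difference -3.48, standard error 0.49, adjusted p = 0.310 in limma). *Ppp3r2*, the testis calcineurin regulatory subunit, was at 159.7 and 43.6 TPM and at 3.39 and 6.57 TPM (-3.88, standard error 0.73). Both genes had lower levels in both KO libraries, as did *Efcab10*, but their controls were apart by more than the 1.03-fold of *Efcab10*.

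Other EF-hand genes went the other way. *Efcab9*, a calcium sensor of the CatSper channel of sperm, was at 3.82 and 3.76 TPM in the control pair and 11.4 and 24.8 TPM in KO 1 and KO 2 (log2 difference 1.90, adjusted p = 0.313 in limma). *Efcab1*, a dynein-associated calcium sensor of cilia, had a difference of 1.08 from levels under 1 TPM in the control pair.

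*Tmem89* was set beside the 184 other tested genes named Tmem and a number, a group that shares a name and no function. In this group 25 (13.6%) were lower and 71 (38.6%) higher without overlap of the groups, close to the 12.1% and 38.6% of all genes tested. None passed an FDR of 0.05 in limma, 6 were lower and 17 higher at an unadjusted p under 0.05, and the median log2 difference was 0.23. The smallest p among the lower ones were those of *Tmem120a* (122 and 125 TPM in the control pair, 54.8 and 60.6 TPM in KO 1 and KO 2), *Tmem97* (-1.17) and *Tmem203* (-0.99). Among the higher ones they were those of *Tmem106c* (87.0 and 107.5 TPM, 196 and 214 TPM), *Tmem143* (1.35) and *Tmem123* (1.27). *Tmem202*, named after its value was seen, had a difference near that of *Tmem89*, at 38.9 and 7.94 TPM in the control pair and 0.74 and 2.12 TPM in KO 1 and KO 2.

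**Figure D4:**
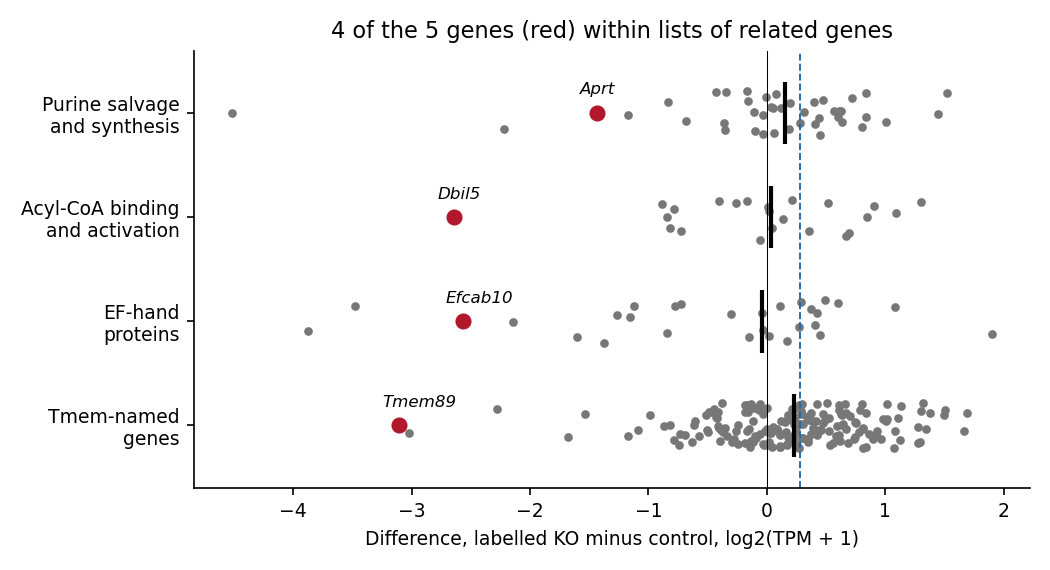
Differences of KO from control (log2(TPM + 1) scale) of the genes in 4 lists (grey, black bar at the list's median, vertical scatter for legibility) and of the gene of the 5 that each list was set beside (red). The list medians run from -0.04 to 0.23, and the dashed line marks the median of 0.28 over all genes tested.

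Sums of markers of germ cell stages also differed between the groups, and a sum can be carried by a few abundant genes. The pachytene, round and elongating spermatid sums were lower in both KO libraries, as the 5 genes were. The leptotene and zygotene sum and the spermatogonial sum were higher. The summed level of 20 round spermatid markers was 1543 and 605 TPM in the control pair and 185 and 248 TPM in KO 1 and KO 2, with *Spata4* the most abundant at 924 and 404 TPM and at 61.3 and 95.9 TPM. Defining spermatid genes were at or near 0, with *Prm1* and *Prm2* at no more than 1.48 TPM and *Acrv1* at no more than 0.35 TPM in any library. Of these 20 markers 8 were tested and 4 were lower and 2 higher without overlap of the groups. The 19 pachytene markers summed to 13395 and 7604 TPM in the control pair and 5189 and 6812 TPM in KO 1 and KO 2, and 9 were lower and 2 higher without overlap. The 16 leptotene and zygotene markers summed to 1674 and 2149 TPM and to 3341 and 3255 TPM, with 13 higher and 0 lower without overlap. The 16 elongating spermatid markers summed to 803 and 322 TPM in the control pair and 239 and 305 TPM in KO 1 and KO 2, lower in both KO libraries. Most of that sum was *Odf2*, at 754 and 303 TPM in the control pair and 216 and 277 TPM in KO 1 and KO 2. Of the 6 elongating spermatid markers tested, 2 were lower and 2 higher without overlap. The 14 spermatogonial markers summed to 859 and 1679 TPM and to 1876 and 1696 TPM, higher in both KO libraries but close between control 2 and KO 2. Of the 13 spermatogonial markers tested, 1 was lower and 4 higher without overlap. Their median log2 difference was 0.07, beside 0.28 over all genes tested. Of all genes tested, 12.1% were lower and 38.6% higher without overlap. The part of cell composition in the 5 differences was not tested.

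The sum of Leydig cell markers and that of macrophage and red blood cell markers were lowest in control 2, and neither sum separated the groups. The 8 Leydig cell markers summed to 3669 TPM in control 1, 20.5 TPM in control 2, 401 TPM in KO 1 and 622 TPM in KO 2. The 12 macrophage and red blood cell markers summed to 3079, 53.9, 2603 and 2169 TPM in the same order. Red blood cell genes did not follow that sum. *Hba-a2* and *Hbb-bs* were above 0 TPM only in KO 2 (244 and 22.4 TPM), where *Hba-a1* was at 0 TPM. *Hbb-bt* and *Alas2* were lowest in control 2 (1.66 and 1.55 TPM) and highest in KO 2 (9.31 and 4.88 TPM). The 11 Sertoli cell markers summed to 991 to 1349 TPM and the 5 peritubular myoid markers to 12.3 to 24.7 TPM. The part of somatic cells in the 5 differences was not tested.

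Transcript length moved with the difference between the groups. The longest transcripts of the 5 genes were 531 (*Gm5617*), 581 (*Dbil5*), 673 (*Efcab10*), 929 (*Aprt*) and 945 (*Tmem89*) nucleotides, so that only 1.57% to 5.87% of the genes tested were shorter. For *Tmem89* the 945 nucleotides equal the whole gene, and its transcript with the longest coding sequence has 538. The matching transcript of *Aprt* has 849. Classes and correction use the longest transcript. The median over the genes tested was 3172 nucleotides. Over 5 equal classes of length the median log2 difference went from -0.06 in the shortest class (76 to 1758 nucleotides) through 0.15, 0.28 and 0.41 to 0.60 in the longest. In the shortest class 25.7% of genes were lower without overlap of the groups, and in the longest 3.02%. After a correction of each library for length, chosen after the lengths were seen, the log2 differences were -2.96 for *Tmem89*, -2.40 for *Dbil5*, -2.36 for *Efcab10*, -1.84 for *Gm5617* and -1.29 for *Aprt*. The median over all genes was 0.28 before this correction and 0.01 after it. Relative to that median the differences went from -3.39 to -2.97 for *Tmem89*, -2.92 to -2.41 for *Dbil5* and -2.85 to -2.37 for *Efcab10*. That of *Gm5617* went from -2.38 to -1.86 and that of *Aprt* from -1.72 to -1.30.

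**Figure D5:**
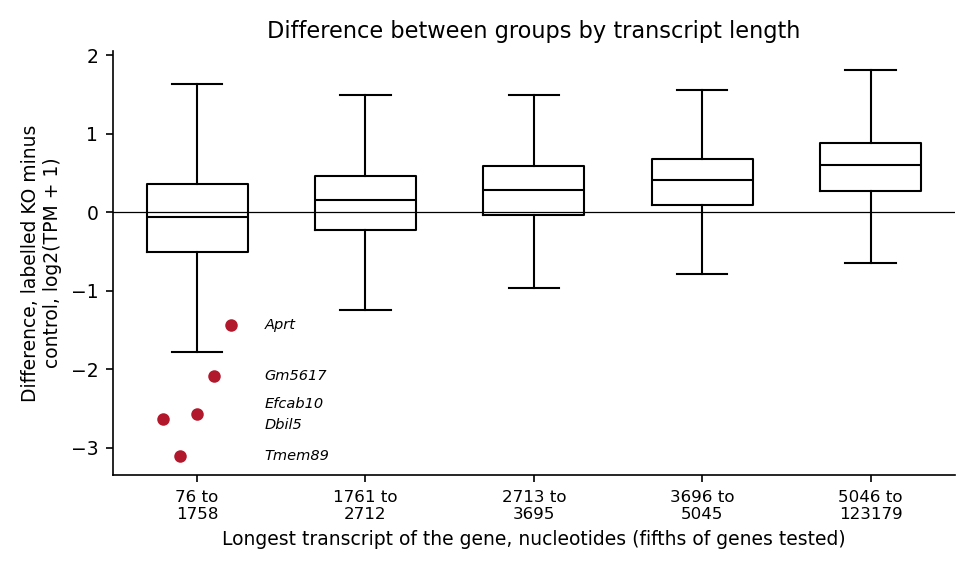
Log2 difference of KO from control by class of transcript length (5 classes of equal size). Boxes show quartiles and median, whiskers reach 1.5 times the interquartile range, and points beyond them are not drawn except the 5 genes (red), all in the shortest class and all below its median of -0.06.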

How the data were processed

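RNA-seq of GFP-positive cells was read from 4 samples, 2 per genotype, grouped by their labels. The authors trimmed reads with Trim Galore 0.5.0 (cutadapt 1.16), aligned them to UCSC mm10 with STAR 2.6.0a and deposited TPM per gene from RSEM 1.3.1. The depth behind these values, and the precision it gives, is unknown, and the study's own test was not repeated. Genes whose mean over the 4 samples reached 1 TPM were fitted as log2(TPM + 1) by genotype in R 4.3.3 with limma 3.58.1 (mean-variance trend, Benjamini-Hochberg over all genes), after a check on simulated data. Fold changes of low genes are understated on this scale. The 5 genes, the lists and the rule for other named genes (smallest p per list, nearest neighbours on the chromosome, nearest profiles, bounds) were chosen with earlier results of these data known. All 5 passed the filter, and 27 rows with a date in place of a symbol were not named. Alternatives changed the pseudocount, filter, scaling, variance trend, replicate block and length correction, and left out each sample. Some genes of the EF-hand list are counted but not reported here by name.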

Additional observations from a re-analysis of the deposited data

How the results depend on the processing

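The 5 genes were chosen for their lower level, so its direction under the alternatives is no sign of stability, and both filters, the variance trend and both blocks leave the differences unchanged by construction. Over all alternatives the log2 differences ran from -3.61 (pseudocount of 0.1) to -2.05 (pseudocount of 5) for *Tmem89*, -2.98 to -2.30 for *Dbil5*, -2.88 to -2.05 for *Efcab10*, -2.43 to -1.84 for *Gm5617* and -1.77 to -1.29 for *Aprt*. The crossed block and the length correction were added after the data were seen. The median difference over all genes, 0.28 as reported, was -0.01 after median-ratio scaling. With that scaling, 1097 genes were lower and 606 higher at an unadjusted p under 0.05, and the list medians were -0.14 for purine, -0.28 for acyl-CoA, -0.37 for EF-hand, -0.084 for Tmem genes and -0.19 for neighbours. Relative to the median over all genes the purine list was at -0.13 before and after. Quantile normalization gave 1009 lower and 1010 higher, and medians of -0.21 for acyl-CoA and 0.012 for Tmem genes. The length correction gave 840 lower and 558 higher, and medians of -0.037 for purine and 0.052 for Tmem genes. Relative to the median over all genes, it moved the EF-hand list from -0.32 to -0.02 and the acyl-CoA list from -0.25 to -0.04. In the same terms the purine list went from -0.13 to -0.05, Tmem genes from -0.05 to 0.04 and neighbours from -0.15 to -0.09. The cause of the changes under quantile normalization was not tested.

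The replicate numbers in the labels do not show shared animals or litters, and deviations from the group means of samples sharing a number had a correlation of -0.16 over genes. With the replicate block 656 genes were higher at an unadjusted p under 0.05, and 0 passed an FDR of 0.05 in limma. With the crossed replicate block 80 genes were lower and 7 higher at an FDR of 0.05.

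With one sample left out, the lone sample of a group is assumed to vary like the other group. Genes lower at an FDR of 0.05 in limma then ranged from 0 without KO 1 to 1875 without control 2 (1375 without control 1), and genes higher from 0 to 5610 without control 1 (2248 without control 2). At an unadjusted p under 0.05 genes lower ranged from 124 without KO 1 to 2798 without control 2, and genes higher from 59 without KO 2 to 6592 without control 1. Without a control the spread comes from the KO pair alone, which lay closer together than the controls. List medians ranged from -0.01 to 0.29 for purine, -0.06 to 0.09 for acyl-CoA, -0.23 to 0.06 for EF-hand, 0.14 to 0.40 for Tmem genes and -0.05 to 0.31 for neighbours.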
